A study of Mus musculus with 9 samples.

Results

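Definitive endoderm (DE) made in culture from mouse embryonic stem (ES) cells was compared with ES cells on Illumina bead arrays. The comparison takes the 3 DE arrays and the 3 ES arrays, 6 of the 9 arrays of the series, and covers every gene detected on at least 3 of the 6. Total RNA, 500 ng per sample, came from cells sorted by flow cytometry with a gate that the labels do not name. The DE cells descend from the R1 line, from a cross of 129X1/SvJ with 129S1/SV-+p+Tyr- cKitlSl-J/+ mice. The ES cells are labelled 129P2/OlaHsd and carry no reporter. The labels' protocols name the lines AV3, p2lac40, Sox17GFP and Pax9Venus without assigning them to samples. Cells were grown on mouse embryonic fibroblast feeders with the cytokine LIF and were depleted of feeders before differentiation. Endoderm was induced with 5 nM GSKiXV and 5 µM IDE-1 on day 2, and IDE-1 was given again on days 3, 4 and 5. The day on which DE was collected is not stated. Strain therefore differs with the group and cannot be told apart from differentiation, nor can line or sort as far as they differed. By its label ES 3 was the only array on the second slide, and all others shared the first.

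Definitive endoderm is the embryonic layer that lines the gut tube and gives rise to liver, pancreas, lung and thyroid. Nodal and activin signalling induces it from pluripotent cells, which then shut down the factors that hold ES cells in self-renewal and turn on Sox17, Foxa and Gata factors. The visceral endoderm of the yolk sac, a separate lineage, uses many of the same factors and secretes plasma proteins. Surface receptors, carriers, enzymes and secreted proteins set what such a layer can sense, take up, make and release.

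Detected probes numbered 13448 to 14352 per array at a detection p under 0.05, and median raw intensities lay between 93.9 and 151. After normalization the first principal component held 77.3% of the variance and separated DE from ES cells. The second held 15.9%, and its scores were -26 and -27.5 for DE 1 and DE 2 but 60.9 for DE 3. Across genes DE 1 and DE 2 correlated at 0.995 and differed by at least 2-fold in 11 genes, whereas DE 3 was at least 2-fold above the mean of DE 1 and 2 in 752 genes and at least 2-fold below it in 817. ES 1 and ES 2 correlated at 0.994. The labels do not call the 3 samples of a group separate cultures, and p-values thus reflect only how these samples vary, possibly for technical reasons. Of the definitive endoderm markers tested, 12 of 13 rose and 0 fell. Their median level was 12.16, 12.36 and 9.17 on DE 1, 2 and 3 and 5.72, 5.40 and 6.04 on ES 1, 2 and 3, and 9 of the 13 were at least 2-fold lower on DE 3 than on DE 1 and 2. Of the pluripotency markers, 0 of 11 rose and 11 fell. Sox17, which marks endoderm, read 12.58, 12.41 and 11.66 in DE and 4.76, 4.98 and 5.18 in ES cells (above background on 1 of 3 ES arrays). Markers of other cells were also read: 9 of 10 extraembryonic endoderm genes rose and 0 fell, at a median of 11.55, 11.25 and 12.50 in DE and 6.95, 7.07 and 6.52 in ES cells. On DE 3, 7 of these 10 were at least 2-fold above DE 1 and 2. The 9 tested genes of blood and endothelium had 3 rises and 0 falls, with a median level of 6.44, 6.20 and 11.56 for the DE arrays in order and 7.85, 7.62 and 6.99 on ES 1, 2 and 3. Cdh5, Tie1, Tal1 and Gata1 of that list were detected on 0 ES arrays.

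Levels below are normalized log2 intensities of the brightest probe of a gene, given for DE 1, 2 and 3 and then for ES 1, 2 and 3. A difference is the log2 level in DE minus that in ES ± its standard error from limma with n = 3 arrays a group. A gene rose or fell where its Benjamini-Hochberg adjusted p was under 0.05. Where the dim group had a gene on none of its arrays above background, its fold is a bound, written "at least", against the higher of the dim signal itself and the lowest detected signal of that array. Values without DE 3 are fitted log2 differences, also for such genes. In bulk RNA, fewer cells of a type and less RNA per cell cannot be told apart.

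Of 9818 genes tested, 2229 rose in DE (22.7%), 2267 fell (23.1%) and 5322 did not pass. Calls of at least 2-fold numbered 1439 higher (14.7%) and 1417 lower (14.4%). At least 16-fold, 74 genes rose and 102 fell. On the array as a whole, 234 of 16593 genes (1.41%) were detected on all 3 DE and 0 ES arrays, and 337 (2.03%) on all 3 ES and 0 DE arrays. The median difference over all genes tested was 0.00. Surface protein families counted 320 tested genes, of which 114 rose and 53 fell, and carriers and channels 327, of which 109 rose and 53 fell. Enzyme families counted 666 genes with 195 higher and 146 lower. Secreted protein families counted 321 genes with 92 higher and 96 lower, and transcription factor families 588 with 140 higher and 138 lower.

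**Figure D1:**
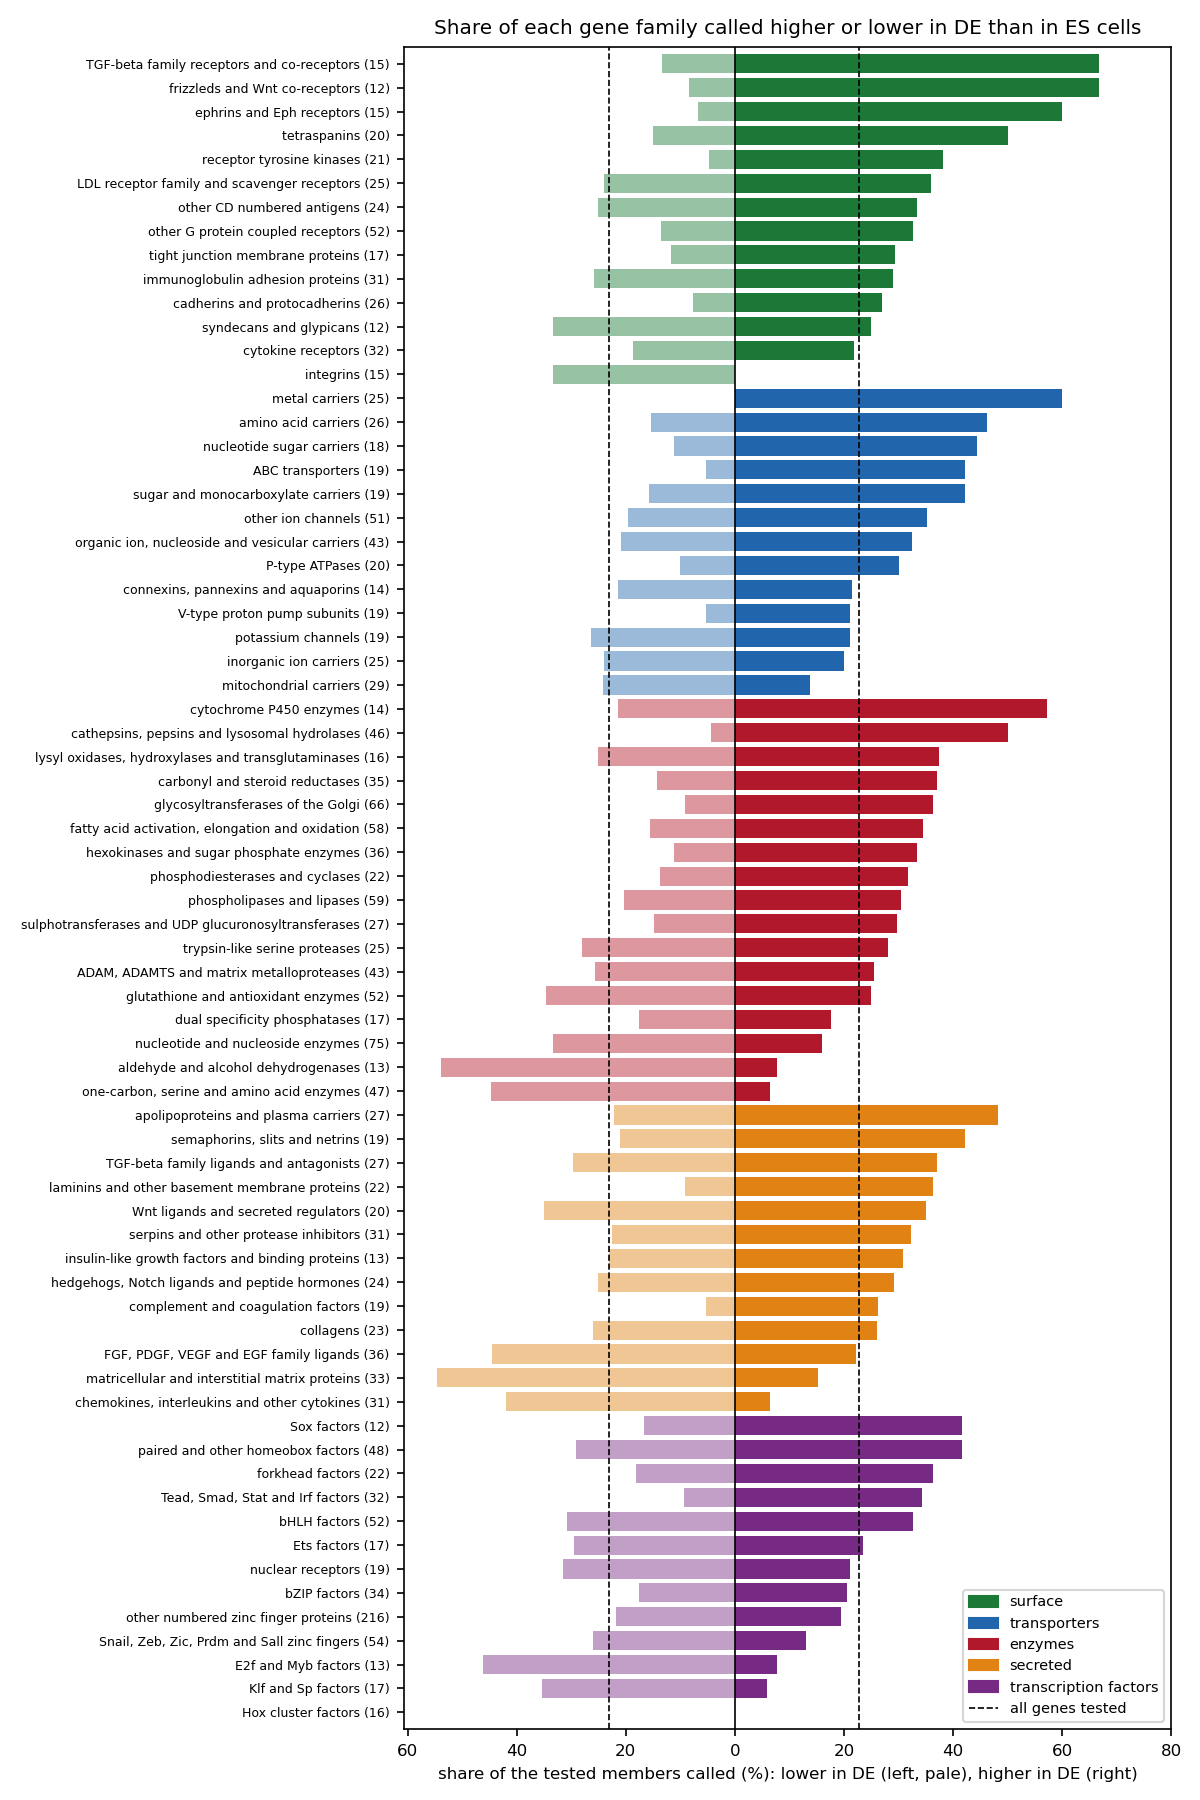
Share of the tested members of each family of at least 12 tested genes that were called higher (right) or lower (left, pale) in DE than in ES cells, in percent, coloured by class, with the number tested in parentheses. Dashed lines mark the shares over all genes tested, 22.7% higher and 23.1% lower. Metal carriers have 15 of 25 members on the right and 0 on the left, and matricellular and interstitial matrix proteins have 18 of 33 on the left. The group labelled syndecans and glypicans also holds Cd44, Cspg4 and Cspg5. The group labelled FGF, PDGF, VEGF and EGF family ligands also holds other growth factors and binding proteins.

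Among the largest rises were several genes outside the usual endoderm lists. Srgn, the core protein of a proteoglycan of secretory granules, read 11.36, 10.98 and 12.15 in DE and 5.40, 5.07 and 4.49 in ES cells (above background on 1 of 3 ES arrays). It rose by 6.51 ± 0.36 (adjusted p = 4.88e-05). Klhl6, a BTB and kelch protein, read 11.54, 11.52 and 12.27 in DE and 6.10, 6.19 and 4.55 in ES cells (above background on 2 of 3 ES arrays) and rose by 6.16 ± 0.47 (adjusted p = 0.000166). Both were high on all DE arrays with no overlap with the ES arrays, as held in the upward direction for 28.6% of all genes tested and in the downward direction for 29.6%. Gkn2, named for a secreted protein of the stomach lining, was above background on no ES array and was at least 29.5-fold higher in DE (adjusted p = 1.24e-05), at 10.03, 9.68 and 10.37. Asb4, a substrate adaptor of a ubiquitin ligase, was at least 29.1-fold higher (adjusted p = 8.92e-06). The membrane glycoprotein gene Emb, a partner of monocarboxylate carriers, read 15.18, 15.27 and 13.83 in DE and 6.02, 6.26 and 12.65 in ES cells. ES 3 was thus near the DE arrays and apart from ES 1 and 2, and the rise of 6.45 ± 1.70 (adjusted p = 0.0198) was kept in 2 of the 6 fits that each left out 1 array.

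Among the largest falls, Tcl1, a coactivator of the kinase Akt that is used in ES cells, was at 11.14, 11.24 and 11.39 on the ES arrays and above background on no DE array. It was at least 68-fold lower (adjusted p = 8.16e-06). The smooth muscle actin Actg2 read 4.48, 4.42 and 5.56 in DE and 11.18, 11.50 and 11.23 in ES cells (above background on 1 of 3 DE arrays) and fell by 6.48 ± 0.32 (adjusted p = 3.62e-05). Gbp2b, an interferon-inducible GTPase, and Krt42, a keratin, were at least 44.8-fold (adjusted p = 8.16e-06) and 42.4-fold lower (adjusted p = 1.48e-05), each above background on 0 of 3 DE arrays. Mgp, an inhibitor of calcification in matrix, was at least 36.9-fold lower (adjusted p = 1.81e-05).

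Receptors for TGF-beta family ligands rose more often than they fell in DE. Of the TGF-beta family receptors and co-receptors, 10 of 15 tested members rose and 2 fell (6 and 2 without ES 2), and their median difference was 0.86. The EGF-CFC co-receptors that Nodal needs went opposite ways. Cfc1 read 11.05, 10.54 and 8.14 in DE and 4.83, 4.52 and 4.60 in ES cells and was at least 27.2-fold higher in DE (adjusted p = 0.00142). Tdgf1, the co-receptor of pluripotent cells, read 8.85, 8.29 and 5.84 in DE and 11.34, 11.60 and 11.21 in ES cells and fell by 3.72 ± 0.72 (adjusted p = 0.00621). In both genes DE 3 was the lowest DE array, and no DE array overlapped the ES arrays. Without DE 3 the log2 differences were 6.15 for Cfc1 and -2.81 for Tdgf1. Tgfbr3, which presents TGF-beta and inhibin to the signalling receptors, read 11.45, 11.53 and 10.39 in DE and 7.25, 6.79 and 7.59 in ES cells and rose by 3.92 ± 0.36 (adjusted p = 0.000331). Amhr2, the receptor of anti-Müllerian hormone, fell by 2.23 ± 0.27 (adjusted p = 0.000936). Eng, an endothelial co-receptor, did not pass and read 4.57, 4.62 and 9.81 in DE and 7.41, 7.11 and 7.69 in ES cells (above background on 1 of 3 DE arrays), high on DE 3 alone.

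Guidance and contact receptors also rose more often than they fell. Of the plexins and guidance receptors, 6 of 8 tested members rose and 0 fell, and their median difference was 1.55. Plxna2, a semaphorin receptor, read 10.43, 10.25 and 9.26 in DE and 6.78, 6.85 and 6.76 in ES cells and rose by 3.18 ± 0.31 (adjusted p = 0.000433). Nrp1, which binds semaphorins and VEGF, rose by 2.83 ± 0.39 (adjusted p = 0.00151), and the Slit receptor Robo1 by 1.98 ± 0.31 (adjusted p = 0.00286). Of the ephrins and Eph receptors, 9 of 15 tested members rose and 1 fell (5 and 1 without ES 2, 5 and 1 without ES 3), and their median difference was 0.90. Ephb1, a receptor for ephrin B ligands, was detected on 0 ES arrays and was at least 3.5-fold higher (adjusted p = 0.00115). Epha7 read 9.45, 9.42 and 7.48 in DE and 5.94, 6.01 and 6.26 in ES cells and rose by 2.72 ± 0.52 (adjusted p = 0.00595), and by 3.37 without DE 3. The ephrin Efna1 rose by 2.71 ± 0.66 (adjusted p = 0.0143), against 1.88 without DE 3, and the call was lost in 1 of the 6 fits without an array.

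Of the frizzleds and Wnt co-receptors, 8 of 12 tested members rose and 1 fell (4 to 5 rose and 0 to 1 fell in fits without DE 1, DE 2, ES 1, ES 2 or ES 3), and their median difference was 1.19. Frizzleds are the receptors of Wnt ligands. Lgr5, an R-spondin receptor that marks gut stem cells in the adult, read 8.20, 8.07 and 6.69 in DE and 5.34, 4.76 and 4.45 in ES cells (above background on 1 of 3 ES arrays) and rose by 2.81 ± 0.44 (adjusted p = 0.00275). Fzd8 read 8.59, 9.09 and 6.08 in DE and 5.40, 5.16 and 4.72 in ES cells (above background on 1 of 3 ES arrays) and Fzd6 read 9.89, 9.78 and 7.27 in DE and 6.50, 6.21 and 6.70 in ES cells. Both were lowest among the DE arrays on DE 3. Their rises of 2.83 ± 0.74 and 2.51 ± 0.68 passed with all arrays, but were kept in 2 and 1 of the 6 fits without an array. Without DE 3 their differences were 3.75 and 3.36. Of the receptor tyrosine kinases, 8 of 21 tested members rose and 1 fell (10 and 4 without DE 3), and their median difference was 0.49. Flt1, a VEGF receptor, read 13.03, 13.26 and 11.88 in DE and 7.38, 7.65 and 9.02 in ES cells and rose by 4.70 ± 0.53 (adjusted p = 0.000704). Pdgfra rose by 4.34 ± 0.51 (adjusted p = 0.000839) and is also on the fibroblast list, whose other called members fell. Axl, the receptor of Gas6, fell by 1.98 ± 0.18 (adjusted p = 0.000328).

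Among the G protein coupled receptors, 17 of 52 tested members rose and 7 fell (21 and 13 without DE 3). Prokr1, a prokineticin receptor, was at 9.56, 9.39 and 7.83 on DE 1 to 3 and detected on 0 ES arrays, at least 13.8-fold higher (adjusted p = 0.00051). Pth1r, the receptor of parathyroid hormone and a marker of parietal endoderm, rose by 5.00 ± 0.59 (adjusted p = 0.000859, above background on 1 of 3 ES arrays), with 4.28 without DE 3. Gpr176, an orphan receptor, was at least 10.6-fold lower (adjusted p = 0.00052), and Avpr1a, a vasopressin receptor, at least 3.97-fold lower (adjusted p = 8.4e-05). Cxcr4, the receptor by which endoderm is often sorted, read 12.16, 12.36 and 8.48 in DE and 5.22, 4.88 and 5.13 in ES cells (above background on 2 of 3 ES arrays). DE 3 was lower than the other DE arrays but above every ES array.

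Antigens used for sorting and immune adhesion moved in both directions. Cd40, a receptor of the TNF family known from B cells, read 12.74, 12.67 and 11.10 in DE and 7.47, 7.87 and 7.49 in ES cells. It rose by 4.56 ± 0.44 (adjusted p = 0.000418), on all DE arrays. Cd24a, a mucin-like GPI-anchored antigen, read 9.83, 9.41 and 7.88 in DE and 5.12, 4.85 and 4.86 in ES cells (above background on 1 of 3 ES arrays) and rose by 4.09 ± 0.48 (adjusted p = 0.000852), and by 4.68 without DE 3. Cd248, or endosialin, a surface protein of stromal cells, read 5.62, 5.03 and 7.09 in DE and 9.59, 9.70 and 11.12 in ES cells (above background on 2 of 3 DE arrays) and fell by 4.22 ± 0.61 (adjusted p = 0.002), and by 4.81 without DE 3. Vcam1 and Icam1, ligands of leukocyte integrins, fell by 3.07 ± 0.54 (adjusted p = 0.00419, above background on 1 of 3 DE arrays) and 2.04 ± 0.56 (adjusted p = 0.0234), the latter kept in 2 of 6 fits without an array. Their differences without DE 3 were -3.62 and -2.68. Of the tetraspanins, 10 of 20 tested members rose and 3 fell (10 and 6 without DE 3), and their median difference was 0.66. Tetraspanins organize membrane microdomains. Tspan12, which assists a Norrin receptor, rose by 3.01 ± 0.28 (adjusted p = 0.000337) and Tspan14 by 1.99 ± 0.20 (adjusted p = 0.000505).

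Integrins, the receptors for matrix, were the only surface family examined in which no member rose. Of the integrins, 0 of 15 tested members rose and 5 fell (0 and 8 without DE 3), and their median difference was -0.67. Itga11, which binds collagen, was at least 14.2-fold lower (adjusted p = 7.06e-05). Itgb7 was at least 4.44-fold lower (adjusted p = 0.000239) and its partner Itgae, which binds E-cadherin, fell by 3.12 ± 0.27 (adjusted p = 0.000257, above background on 2 of 3 DE arrays). Itgb5, which binds vitronectin with Itgav, read 9.21, 9.14 and 10.77 in DE and 9.95, 10.24 and 10.23 in ES cells and did not pass. Heparan sulphate carriers and their relatives moved both ways. The group counted here held syndecans and glypicans together with Cd44, Cspg4 and Cspg5, which are neither. Of its 12 tested members 3 rose and 4 fell (3 to 5 rose and 1 to 4 fell in fits without DE 3, DE 2, ES 1, ES 2 or ES 3), and the median difference was -0.53. Cd44, Cspg4 and Cspg5 had differences of -2.27, -0.70 and -0.94. Among the syndecans and glypicans themselves Gpc2, Gpc3 and Gpc6 rose and Sdc1 and Sdc4 fell. Gpc3, Gpc2 and Gpc6 rose by 2.72 ± 0.25, 2.48 ± 0.19 and 1.69 ± 0.19. Gpc3, a glypican of the fetal liver, read 13.53, 13.31 and 12.76 in DE and 10.32, 10.35 and 10.75 in ES cells. Cd44, the hyaluronan receptor, fell by 2.27 ± 0.26 (adjusted p = 0.000734), but another detected Cd44 probe was called otherwise. Sdc1, a syndecan, fell by 1.04 ± 0.34 (adjusted p = 0.0447, above background on 2 of 3 DE arrays), a call kept in 2 of 6 fits without an array, and Sdc4 and Cspg5 were the other members that fell. At tight junctions Cldn6 and F11r rose by 2.62 ± 0.30 and 2.28 ± 0.31, and Jam2 was at least 45.7-fold lower (adjusted p = 1.76e-05) with 10.84, 10.98 and 10.22 on the ES arrays. Cdh1, or E-cadherin, did not pass at 0.08 ± 0.37 (adjusted p = 0.879), and its adjusted p was 0.0266 without DE 3.

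**Figure D2:**
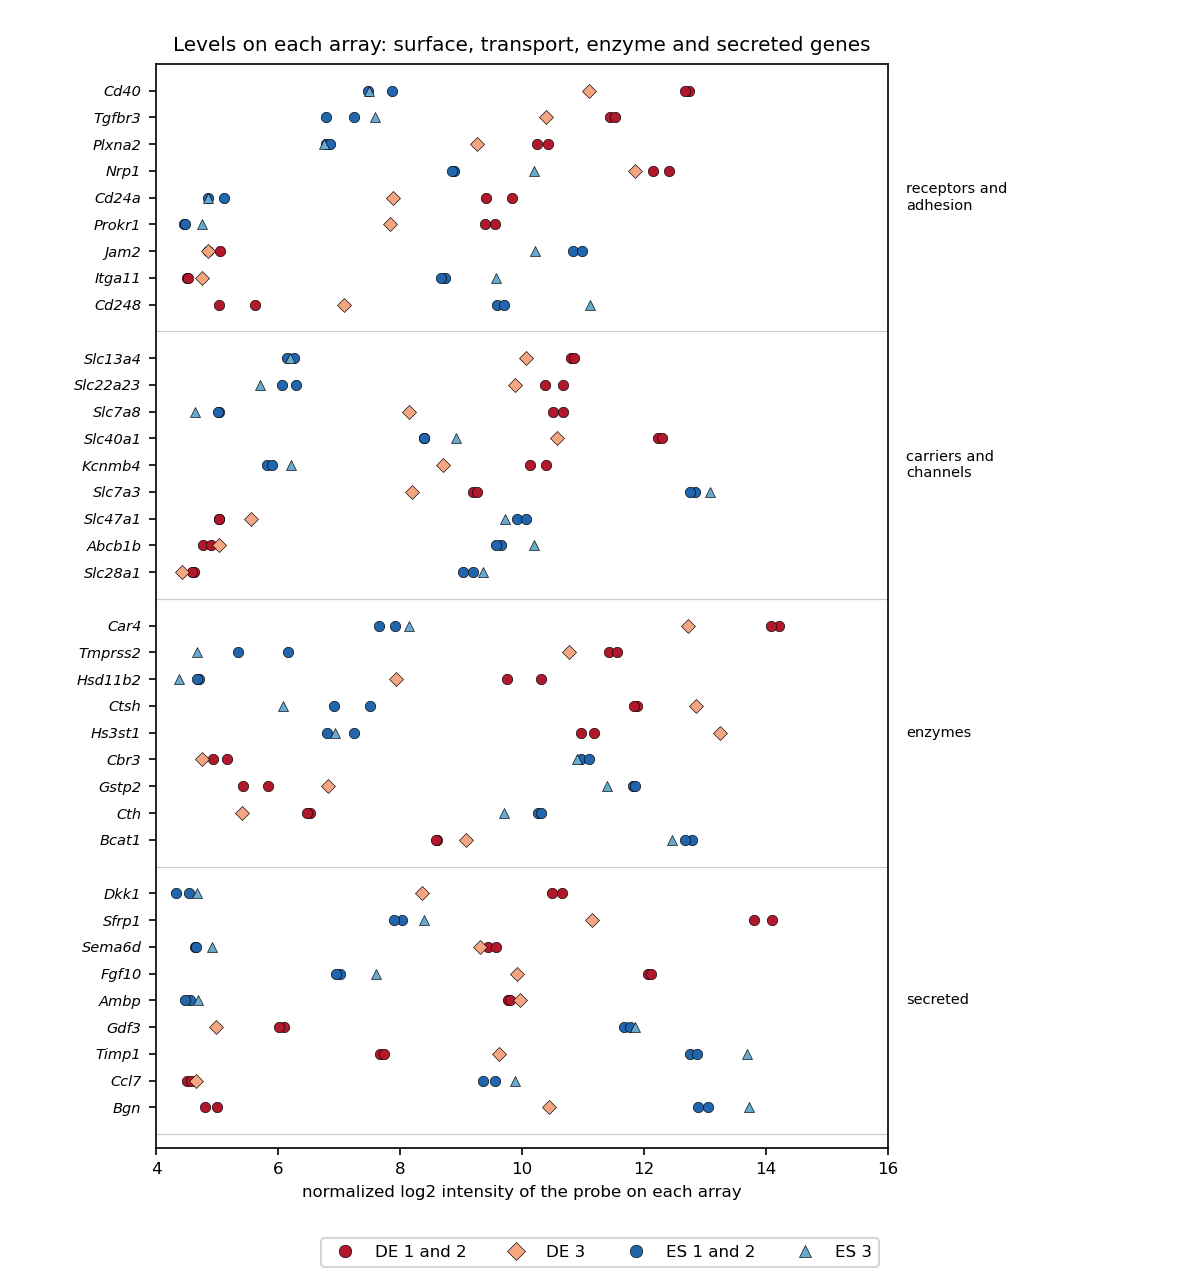
Normalized log2 intensity on each array (horizontal axis) of 36 genes for receptors and adhesion, carriers and channels, enzymes and secreted proteins, with 1 symbol per array. The genes were taken from the calls, few of which overlap between the 3 DE and the 3 ES arrays, so that their separation here follows from the choice. DE 3 (diamonds) often lies away from DE 1 and 2.

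Carriers of metals rose without an exception among the calls. Of the metal carriers, 15 of 25 tested members rose and 0 fell, and their median difference was 0.68. Slc40a1, ferroportin, the exporter of iron, read 12.23, 12.29 and 10.58 in DE and 8.39, 8.40 and 8.92 in ES cells and rose by 3.13 ± 0.47 (adjusted p = 0.00227). Slc39a8, an importer of zinc and manganese, read 8.33, 8.23 and 7.18 on the DE arrays and was detected on 0 ES arrays, at least 6.83-fold higher (adjusted p = 0.000615). Slc39a5, another zinc importer, was at least 2.68-fold higher (adjusted p = 0.00051). Slc11a1, a metal carrier of phagosomes, did not pass at -0.61 ± 0.35 (adjusted p = 0.198), while another of its probes was called otherwise.

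Carriers of organic substrates were exchanged between members. Of the amino acid carriers, 12 of 26 tested members rose and 4 fell (7 and 4 without DE 2, 7 and 3 without ES 2), and their median difference was 0.68. Slc7a8, a neutral amino acid exchanger, read 10.50, 10.67 and 8.14 in DE and 5.04, 5.01 and 4.64 in ES cells and was at least 24.7-fold higher in DE (adjusted p = 0.00138). Slc38a5, a glutamine carrier, rose by 2.96 ± 0.59 (adjusted p = 0.00699). Their differences without DE 3 were 5.69 and 3.63. Slc7a3, a carrier of arginine and lysine, read 9.20, 9.27 and 8.19 in DE and 12.83, 12.76 and 13.09 in ES cells and fell by 4.01 ± 0.31 (adjusted p = 0.000183), while another probe of the gene was called otherwise. Slc22a23, an organic ion carrier without a known substrate, rose by 4.29 ± 0.26 (adjusted p = 6.82e-05). Slc47a1, which exports organic cations, and Slc28a1, which imports pyrimidine nucleosides, went down. Slc47a1 read 5.03, 5.03 and 5.55 in DE and 9.91, 10.07 and 9.72 in ES cells (above background on 1 of 3 DE arrays) and fell by 4.70 ± 0.21 (adjusted p = 2.3e-05). Slc28a1 was detected on 0 DE arrays and was at least 16.4-fold lower (adjusted p = 1.15e-05).

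Ion carriers included large rises of single carriers of sulphate, phosphate and chloride. Slc13a4, a sulphate importer, read 10.80, 10.85 and 10.07 in DE and 6.15, 6.26 and 6.20 in ES cells and rose by 4.37 ± 0.24 (adjusted p = 4.65e-05). Slc12a2, which brings in sodium, potassium and chloride, rose by 2.39 ± 0.36 (adjusted p = 0.00235), and Slc34a2, a phosphate importer, was at least 4.04-fold higher (adjusted p = 0.000189). The phosphate importers Slc20a1 and Slc20a2 went the other way and fell, with differences of -0.75 and -0.66. The whole group of inorganic ion carriers moved both ways: 5 of 25 tested members rose and 6 fell (8 and 6 without DE 3). Over all genes tested the shares were 22.7% and 23.1%. Of the ABC transporters, 8 of 19 tested members rose and 1 fell (5 and 1 without DE 2, 5 and 1 without ES 2), and their median difference was 0.29, or 0.28 with bounded genes at their bound. The exception was Abcb1b, a multidrug efflux pump, which was at 9.66, 9.58 and 10.20 on the ES arrays and above background on no DE array. It was at least 25.1-fold lower (adjusted p = 2.28e-05).

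Among channels, Kcnmb4, an accessory subunit of calcium-activated potassium channels, read 10.40, 10.13 and 8.71 in DE and 5.82, 5.90 and 6.21 in ES cells and rose by 3.77 ± 0.43 (adjusted p = 0.000794). Scn4b, an accessory subunit of sodium channels, was at least 7.2-fold higher (adjusted p = 0.00443), with 4.06 without DE 3, and Itpr2, a calcium release channel of the endoplasmic reticulum, rose by 2.81 ± 0.21 (adjusted p = 0.000149). Clca3b was at least 8.12-fold lower (adjusted p = 2.37e-05). The water channel Aqp8 read 8.22, 8.04 and 10.63 in DE and 4.79, 4.57 and 4.57 in ES cells and was at least 14.1-fold higher (adjusted p = 0.00235), with 3.48 without DE 3, while Aqp3, a water and glycerol channel, fell by 2.97 ± 0.36 (adjusted p = 0.000959, above background on 2 of 3 DE arrays). Gjb2, a connexin, read 11.81, 11.92 and 8.94 in DE and 6.29, 6.30 and 9.61 in ES cells. ES 3 was above DE 3, so the groups overlapped, and the rise of 3.49 ± 1.13 (adjusted p = 0.042) was kept in 2 of 6 fits without an array, with 4.46 without DE 3. Another probe of Gjb2 was called otherwise. Of the proton pump of acidic organelles, 4 of 19 tested members rose and 1 fell, against 22.7% and 23.1% of all genes tested. Atp6v0a1 was among those that rose, by 2.46 ± 0.29 (adjusted p = 0.000855).

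Lysosomal enzymes rose more often than they fell. Of the cathepsins, pepsins and lysosomal hydrolases, 23 of 46 tested members rose and 2 fell, and their median difference was 0.75. Ctsh, a lysosomal aminopeptidase, read 11.89, 11.84 and 12.86 in DE and 6.91, 7.51 and 6.09 in ES cells and rose by 5.36 ± 0.43 (adjusted p = 0.000199). Ctsc, which activates granule proteases, read 12.77, 12.74 and 10.26 in DE and 7.95, 8.15 and 4.57 in ES cells (above background on 2 of 3 ES arrays) and rose by 5.03 ± 1.10 (adjusted p = 0.00963), and by 5.87 without DE 3. Manba, a lysosomal mannosidase, went the other way, at 8.31, 8.13 and 8.77 in DE and 11.93, 12.02 and 11.72 in ES cells, and fell by 3.49 ± 0.21 (adjusted p = 7.27e-05). Of the trypsin-like proteases, the membrane protease Tmprss2 read 11.42, 11.56 and 10.77 in DE and 5.35, 6.17 and 4.67 in ES cells (above background on 2 of 3 ES arrays) and rose by 5.85 ± 0.40 (adjusted p = 0.000113). Mmp13, a collagenase, fell by 3.57 ± 0.23 (adjusted p = 8.61e-05, above background on 1 of 3 DE arrays), and Adam23, an ADAM protein that binds integrins and lacks protease activity, fell by 4.05 ± 0.36 (adjusted p = 0.00029).

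Enzymes that build sugars and sulphate onto proteins and lipids rose more often than they fell. Of the glycosyltransferases of the Golgi, 24 of 66 tested members rose and 6 fell (30 and 10 without DE 3), and their median difference was 0.62. St6gal1 and St3gal6, which add sialic acid, rose by 2.09 ± 0.18 (adjusted p = 0.000285) and 2.74 ± 0.24 (adjusted p = 0.000292), and B4galnt2, which makes the Sda blood group antigen, was at least 7.3-fold higher (adjusted p = 0.00579), with 2.49 without DE 3. B3gnt7, which extends keratan sulphate chains, fell by 3.49 ± 0.29 (adjusted p = 0.000228, above background on 1 of 3 DE arrays). Hs3st1, which adds 3-O-sulphate to heparan sulphate, read 11.18, 10.97 and 13.24 in DE and 6.80, 7.24 and 6.94 in ES cells and rose by 4.80 ± 0.58 (adjusted p = 0.000939), and by 4.08 without DE 3. Chst15, which sulphates chondroitin, rose by 4.02 ± 0.23 (adjusted p = 5.44e-05). Papss1, which makes the sulphate donor of these reactions, rose by 1.84 ± 0.17 (adjusted p = 0.000375). The whole group of sulphotransferases and glucuronosyltransferases held 27 tested genes, of which 8 rose and 4 fell.

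**Figure D3:**
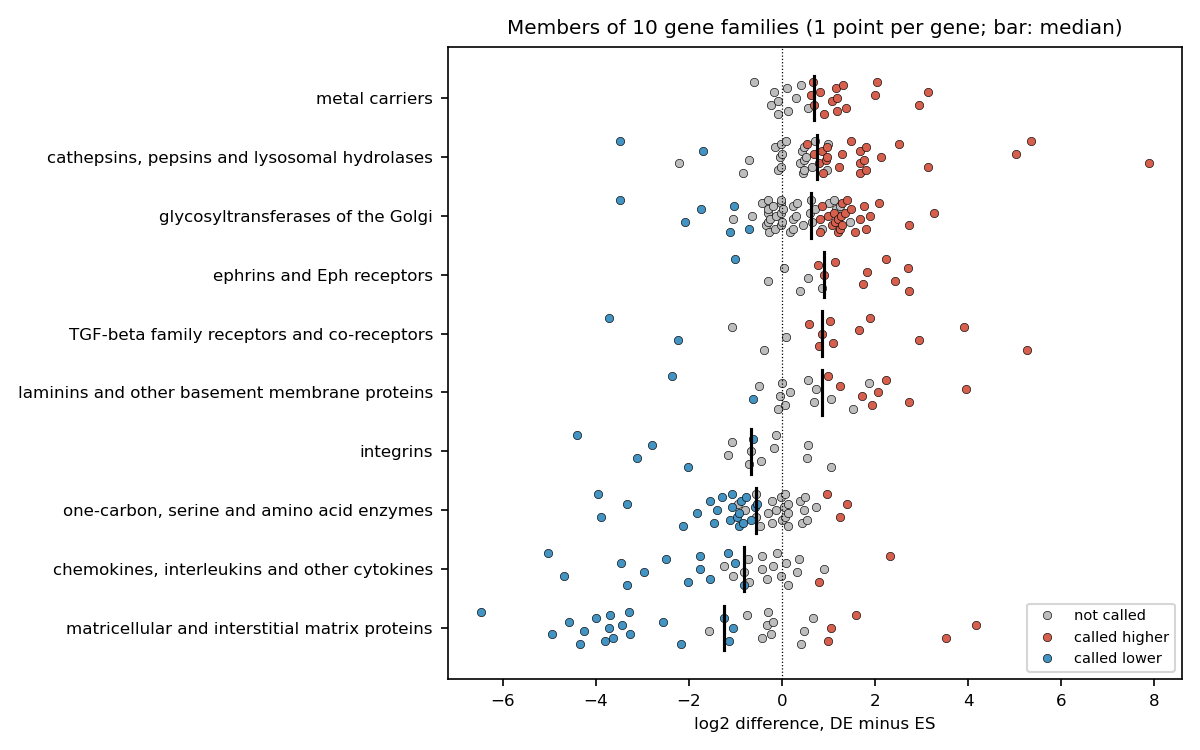
Log2 difference, DE minus ES, of each tested member of 10 families (1 point per gene, red called higher, blue called lower, grey not called) with the family median as a bar. Metal carriers, lysosomal hydrolases, Golgi glycosyltransferases, Eph proteins, TGF-beta receptors and laminins have medians above 0, and integrins, amino acid enzymes, cytokines and interstitial matrix proteins have medians below 0.

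Enzymes of serine, folate and amino acid metabolism fell more often than they rose. Of the serine, folate and amino acid enzymes, 3 of 47 tested members rose and 21 fell (5 and 24 without DE 3), and their median difference was -0.55. Cth, which makes cysteine, read 6.53, 6.48 and 5.41 in DE and 10.27, 10.31 and 9.70 in ES cells and fell by 3.95 ± 0.35 (adjusted p = 0.00029). Bcat1, which transaminates branched-chain amino acids, read 8.61, 8.59 and 9.08 in DE and 12.79, 12.68 and 12.46 in ES cells and fell by 3.88 ± 0.20 (adjusted p = 3.86e-05). Ass1, an enzyme of arginine synthesis, fell by 3.33 ± 0.29 (adjusted p = 0.00029). No DE array reached the ES range in these 3 genes. Got2, a transaminase of mitochondria, read 13.59, 13.68 and 13.53 in DE and 13.39, 13.44 and 13.62 in ES cells and did not pass. Of the nucleotide and nucleoside enzymes, 12 of 75 tested members rose and 25 fell, and their median difference was -0.17. Adss, which starts the AMP branch of purine synthesis, fell by 2.34 ± 0.19 (adjusted p = 0.000233), and the adenylate kinase Ak1 by 2.17 ± 0.19 (adjusted p = 0.000275).

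Of the aldehyde and alcohol dehydrogenases, 1 of 13 tested members rose and 7 fell, and their median difference was -0.59, or -0.26 with bounded genes at their bound. Aldh3a1 was at least 3.82-fold lower (adjusted p = 0.000252), Aldh4a1, which degrades proline, fell by 2.05 ± 0.23 (adjusted p = 0.000672), and Adh5, which removes formaldehyde, by 1.68 ± 0.16 (adjusted p = 0.000348). For Adh5 another probe was called otherwise. The exception was Aldh1l1, a folate enzyme, which read 8.84, 8.61 and 6.82 in DE and 5.75, 5.60 and 5.87 in ES cells and rose by 2.35 ± 0.51 (adjusted p = 0.0094), and by 2.99 without DE 3. Of the glutathione and antioxidant enzymes, 13 of 52 tested members rose and 18 fell (7 to 8 rose and 13 to 19 fell in fits without DE 1, DE 2, ES 1, ES 2 or ES 3), and their median difference was -0.34. Gstp2, a glutathione transferase, read 5.84, 5.43 and 6.82 in DE and 11.82, 11.85 and 11.40 in ES cells and fell by 5.66 ± 0.36 (adjusted p = 8.42e-05). Its close relative Gstp1 went the other way and rose, with a difference of 0.74. Gstp1 may share probe signal with Gstp2, which was not tested. Gsta3 was at least 18.4-fold lower (adjusted p = 1.11e-05), and the quinone reductase Nqo1 fell by 3.42 ± 0.25 (adjusted p = 0.000144, above background on 1 of 3 DE arrays). Gpx3, the secreted glutathione peroxidase, rose by 2.57 ± 0.38 (adjusted p = 0.0022). Cbr3, a carbonyl reductase, was at 10.96, 11.10 and 10.90 on the ES arrays and 5.17, 4.93 and 4.75 on the DE arrays, and fell by 6.04 ± 0.17 (adjusted p = 8.16e-06, above background on 1 of 3 DE arrays).

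Steroid and retinoid enzymes moved both ways. Of the carbonyl and steroid reductases, 13 of 35 tested members rose and 5 fell, and their median difference was 0.38. Hsd11b2, which inactivates glucocorticoids, read 9.75, 10.31 and 7.94 in DE and 4.71, 4.67 and 4.37 in ES cells and was at least 18.3-fold higher (adjusted p = 0.000933). Its log2 difference was 5.45 without DE 3. Akr1c12, an aldo-keto reductase with near-identical relatives, rose by 3.98 ± 0.44 (adjusted p = 0.000679, above background on 1 of 3 ES arrays). Hsd17b14 and Hsd17b1, dehydrogenases that act on steroids, fell by 3.31 ± 0.29 (adjusted p = 0.000275, above background on 2 of 3 DE arrays) and 2.17 ± 0.47 (adjusted p = 0.00923). Of the cytochrome P450 enzymes, 8 of 14 tested members rose and 3 fell, and their median difference was 0.89, or 0.81 with bounded genes at their bound. Cyp26a1, which degrades retinoic acid, rose by 3.01 ± 0.27 (adjusted p = 0.00029, above background on 1 of 3 ES arrays), and Cyp1b1 and Cyp7b1 fell by 3.19 ± 0.58 (adjusted p = 0.00469, above background on 1 of 3 DE arrays) and 1.98 ± 0.30 (adjusted p = 0.00233). Car4, a carbonic anhydrase on the cell surface, read 14.22, 14.09 and 12.72 in DE and 7.92, 7.65 and 8.15 in ES cells and rose by 5.77 ± 0.41 (adjusted p = 0.000119). Car14, another membrane-bound form, rose by 4.20 ± 0.29 (adjusted p = 0.000119, above background on 2 of 3 ES arrays). Of the hexokinases and sugar phosphate enzymes, 12 of 36 tested members rose and 4 fell (17 and 7 without DE 3). The largest rise was that of Hkdc1, with a difference of 6.64. Pygl, the liver glycogen phosphorylase, read 10.49, 10.36 and 9.09 in DE and 6.25, 5.96 and 7.02 in ES cells and rose by 3.57 ± 0.44 (adjusted p = 0.00106). The phosphofructokinase Pfkp fell by 2.39 ± 0.33 (adjusted p = 0.00162), while Pfkl rose and Pfkm did not pass, with differences of 0.80 and 0.20. Scd1, which desaturates fatty acids, rose by 2.11 ± 0.35 (adjusted p = 0.00328). Adcy8, an adenylate cyclase, was at least 9.42-fold higher (adjusted p = 0.000259). Dgkk, a diacylglycerol kinase, read 12.72, 13.09 and 8.66 in DE and 5.52, 5.03 and 5.70 in ES cells (above background on 2 of 3 ES arrays) and rose by 6.07 ± 1.10 (adjusted p = 0.00478), with 7.49 without DE 3.

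Secreted Wnt proteins and their regulators moved both ways. Of the Wnt ligands and secreted regulators, 7 of 20 tested members rose and 7 fell, and their median difference was -0.33. The rises were Dkk1, Sfrp1, Sfrp5, Frzb, Apcdd1, Dkkl1 and Rspo3, and the falls were Sfrp2, Notum and the ligands Wnt3a, Wnt4, Wnt6, Wnt7b and Wnt8a. The antagonists Dkk3 and Wif1 did not pass. Dkk1, which blocks the Lrp co-receptors, read 10.49, 10.66 and 8.36 in DE and 4.54, 4.32 and 4.68 in ES cells and was at least 25.9-fold higher (adjusted p = 0.00067). Sfrp1, which binds Wnt ligands, read 13.80, 14.10 and 11.15 in DE and 8.03, 7.90 and 8.40 in ES cells and rose by 4.91 ± 0.74 (adjusted p = 0.00227), and Sfrp5 was at least 20.4-fold higher (adjusted p = 0.000456). All 3 were lowest among the DE arrays on DE 3, and without it their differences were 6.07, 5.84 and 5.31. Wnt7b fell by 3.36 ± 0.24 (adjusted p = 0.000128, above background on 1 of 3 DE arrays) and Wnt8a was at least 6.02-fold lower (adjusted p = 2.4e-05). Notum, an enzyme that inactivates Wnt ligands, fell by 3.44 ± 0.37 (adjusted p = 0.000587, above background on 1 of 3 DE arrays).

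TGF-beta family ligands and antagonists also moved both ways: 10 of 27 tested members rose and 8 fell. Cer1, an antagonist of Nodal, BMP and Wnt ligands, read 11.86, 11.63 and 6.99 in DE and 4.63, 4.44 and 5.04 in ES cells and was at least 32.4-fold higher (adjusted p = 0.0108), with a log2 difference of 7.04 without DE 3. The BMP regulator Bmper rose by 3.01 ± 0.55 (adjusted p = 0.00497) and the BMP antagonist Nog by 2.79 ± 0.36 (adjusted p = 0.00131, above background on 2 of 3 ES arrays). Gdf3, a ligand of pluripotent cells, read 6.10, 6.02 and 4.99 in DE and 11.68, 11.77 and 11.86 in ES cells (above background on 2 of 3 DE arrays) and fell by 6.07 ± 0.31 (adjusted p = 3.77e-05). Nbl1, another BMP antagonist, fell by 3.46 ± 0.28 (adjusted p = 0.000206, above background on 2 of 3 DE arrays). The largest fall among these members was that of the activin subunit Inhba, with a difference of -6.70, and Inhbb fell too, with -1.92. Lefty1, a Nodal inhibitor, did not pass at 15.04, 15.01 and 9.44 in DE and 11.72, 11.64 and 12.23 in ES cells. DE 3 lay below the ES arrays and DE 1 and 2 above them, and the difference was 3.16 without DE 3 (adjusted p = 2.34e-05).

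Growth factor ligands fell more often than they rose. The group counted here held FGF, PDGF, VEGF and EGF family ligands together with other growth factors and binding proteins. Of its 36 tested members 8 rose and 16 fell, and the median difference was -0.51. Among the members outside the named families Angpt2, Gas6, Kitl and Mdk rose. Angptl4, Angptl7, Bdnf, Fgfbp1 and Ptn of them fell, and Artn, Fgfbp3, Gdnf, Nrtn and Pros1 did not pass. Fgf10, a ligand of branching organs, read 12.07, 12.11 and 9.92 in DE and 7.02, 6.95 and 7.61 in ES cells and rose by 4.17 ± 0.59 (adjusted p = 0.00179), and Fgf5 rose by 3.90 ± 0.59 (adjusted p = 0.00235), with 4.90 and 4.52 without DE 3. Fgf17 read 5.47, 5.33 and 4.58 in DE and 10.65, 10.72 and 10.64 in ES cells (above background on 2 of 3 DE arrays) and fell by 5.54 ± 0.25 (adjusted p = 2.77e-05). Fgf7 was at least 7.87-fold lower (adjusted p = 0.000327), and Angptl4, which inhibits lipoprotein lipase, fell by 3.53 ± 0.19 (adjusted p = 4.19e-05). Sema6d, a membrane semaphorin, was steady across the DE arrays at 9.45, 9.58 and 9.31 and was at least 19.7-fold higher (adjusted p = 1.15e-05). Ihh, a hedgehog ligand of the gut, was at least 4.13-fold higher (adjusted p = 0.0128), with a difference of 1.79 without DE 3.

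Plasma protein genes moved both ways, with more rises than falls. Of the apolipoproteins and plasma carriers, 13 of 27 tested members rose and 6 fell, and their median difference was 0.35. Of all 75 members on the array, tested or not, 7 were detected on all DE and 0 ES arrays and 4 on all ES and 0 DE arrays. Over all genes on the array these shares were 1.41% and 2.03%. Ambp, the precursor of a trypsin inhibitor and of alpha-1-microglobulin, read 9.77, 9.80 and 9.96 in DE and 4.55, 4.48 and 4.69 in ES cells and was at least 26-fold higher (adjusted p = 8.16e-06). Of the serpins and other protease inhibitors, 10 of 31 tested members rose and 7 fell (13 and 11 without DE 3). The hepatic serpins Serpina10 and Serpinf2 were at least 5.25-fold (adjusted p = 6.14e-05) and 5.42-fold higher (adjusted p = 0.0017). Serpinf1 and Serpina3n fell, with differences of -2.50 and -1.78. Of the complement and coagulation factors, 5 of 19 rose and 1 fell (10 and 3 without DE 3), against 22.7% and 23.1% of all genes tested. Coagulation factor F10 was at least 6.07-fold higher (adjusted p = 0.000233). Rbp4, the carrier of retinol, rose by 6.31 ± 0.38 (adjusted p = 6.68e-05, above background on 1 of 3 ES arrays). Its receptor Stra6 rose by 2.77 ± 0.26 (adjusted p = 0.000397, above background on 1 of 3 ES arrays). Apod and Fetub went the other way, at least 8.29-fold (adjusted p = 5.92e-05) and 3.26-fold lower (adjusted p = 9.98e-05), each above background on 0 DE arrays.

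The start regions of 4 genes with large changes are shown to print the letters of motifs known for forkhead, Sox and POU factors where they occur. The 4 were chosen after their motif matches and values were known. They run from 250 bases before to 50 after the annotated start in RefSeq (GRCm38.p6) and are written 5′ to 3′ on the gene's strand. Capitals mark TGTTTGC, a forkhead motif, in Cer1, Apoa1 and Ambp, ACAATAG, a Sox motif, in Ambp, and ATGCAAAT, the octamer, in Zfp42, each on either strand. Among other genes named above, the octamer is also in start regions of Srgn and Asb4, which rose. TGTTTGC is also in those of Gkn2, which rose, and Gbp2b, which fell. ACAATAG is also in a start region of Srgn. A related Sox motif, ACAATGG, is in that of Krt42, which fell, and a related forkhead motif, TGTTTAC, in that of Rbp4, which rose. Apoa1, the main protein of high-density lipoprotein, read 13.05, 12.98 and 12.25 in DE and 4.91, 4.74 and 4.92 in ES cells and was at least 196-fold higher (adjusted p = 8.16e-06). Zfp42, a marker of ES cells, read 6.07, 5.91 and 6.87 in DE and 13.02, 12.91 and 12.72 in ES cells. The regions are Cer1 at chr4:82885102-82885401 (minus strand), Apoa1 at chr9:46228380-46228679 (plus strand), Ambp at chr4:63154123-63154422 (minus strand) and Zfp42 at chr8:43306960-43307259 (minus strand).
Cer1: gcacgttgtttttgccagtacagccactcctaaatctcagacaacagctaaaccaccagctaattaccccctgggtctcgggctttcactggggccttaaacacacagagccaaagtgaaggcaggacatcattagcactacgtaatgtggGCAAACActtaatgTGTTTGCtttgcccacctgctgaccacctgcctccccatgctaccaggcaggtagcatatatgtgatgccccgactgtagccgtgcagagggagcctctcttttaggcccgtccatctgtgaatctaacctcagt
Apoa1: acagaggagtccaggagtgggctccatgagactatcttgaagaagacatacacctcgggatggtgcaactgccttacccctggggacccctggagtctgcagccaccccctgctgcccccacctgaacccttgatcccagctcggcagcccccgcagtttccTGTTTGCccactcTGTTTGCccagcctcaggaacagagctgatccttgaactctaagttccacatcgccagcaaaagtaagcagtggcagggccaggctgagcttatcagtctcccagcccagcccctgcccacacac
Ambp: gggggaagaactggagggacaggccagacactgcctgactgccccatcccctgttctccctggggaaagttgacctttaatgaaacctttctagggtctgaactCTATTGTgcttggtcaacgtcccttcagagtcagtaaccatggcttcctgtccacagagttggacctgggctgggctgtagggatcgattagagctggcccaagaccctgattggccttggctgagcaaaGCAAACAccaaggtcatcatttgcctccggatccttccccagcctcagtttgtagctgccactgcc
Zfp42: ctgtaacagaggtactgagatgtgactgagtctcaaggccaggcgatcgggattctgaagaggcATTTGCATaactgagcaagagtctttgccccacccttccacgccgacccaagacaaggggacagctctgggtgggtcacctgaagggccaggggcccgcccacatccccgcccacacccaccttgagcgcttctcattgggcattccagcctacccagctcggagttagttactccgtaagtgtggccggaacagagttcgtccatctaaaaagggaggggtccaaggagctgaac

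Motif letters were counted in 32851 such regions, and 7977 of the 9818 genes tested had at least 1. TGTTTGC stood in 5.07% of all regions, 3.69% of those of genes tested, 4.04% of those of genes at least 2-fold higher and 4.28% of those at least 2-fold lower. TGTTTAC, which is in none of the 4 regions, stood in 3.65% of all regions and 2.6% of those of genes tested. Its share was 2.69% in those of genes at least 2-fold higher and 2.95% in those at least 2-fold lower. The letters of the zinc finger factors Gata1 to Gata6, AGATAA, stood in 11.2% of all regions, 6.32% of those of genes tested, 6.85% of those of genes at least 2-fold higher and 5.2% of those at least 2-fold lower. They are in none of the 4 regions. The Sox motif of Ambp, ACAATAG, stood in 2.37% of all regions, 1.49% of those of genes tested, 2.2% of those of genes at least 2-fold higher and 0.983% of those at least 2-fold lower, and the related ACAATGG, which is in none of the 4, in 3.66% of all regions, 2.11% of those of genes tested, 3% of those of genes at least 2-fold higher and 1.97% of those at least 2-fold lower. The octamer ATGCAAAT stood in 1.74% of all regions, 1.39% of those of genes tested, 1.35% of those of genes at least 2-fold higher and 2.32% of those at least 2-fold lower. No test was run on these shares, and a match describes letters in the window and not binding.

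Matrix proteins divided by type. Of the laminins and other basement membrane proteins, 8 of 22 tested members rose and 2 fell (7 to 11 rose and 0 to 4 fell in fits without DE 3, ES 1 or ES 2), and their median difference was 0.87. Lamb1, a laminin chain, rose by 2.73 ± 0.28 (adjusted p = 0.000488), and Lama1 rose by 3.95 ± 0.58 (adjusted p = 0.00206), with 3.22 without DE 3. Of the collagens, 6 of 23 tested members rose and 6 fell (6 and 3 without DE 2), and their median difference was -0.20. The shares over all genes tested were 22.7% and 23.1%. Col23a1, a membrane collagen, read 10.59, 10.51 and 9.17 in DE and 4.58, 4.66 and 4.79 in ES cells and was at least 30.8-fold higher (adjusted p = 0.000119), and Col4a1 of basement membranes rose by 3.41 ± 0.35 (adjusted p = 0.000504). Col1a1 and Col6a1, collagens of interstitial matrix, fell by 4.98 ± 0.43 (adjusted p = 0.000275, above background on 1 of 3 DE arrays) and 4.40 ± 0.83 (adjusted p = 0.00567, above background on 1 of 3 DE arrays), the latter by 5.01 without DE 3, and Col9a2 fell by 1.95 ± 0.27 (adjusted p = 0.00175). Spon2, a secreted matrix protein, read 11.27, 11.06 and 12.32 in DE and 6.87, 6.98 and 8.29 in ES cells and rose by 4.17 ± 0.48 (adjusted p = 0.00078), and Mfap2 of microfibrils rose by 3.53 ± 0.37 (adjusted p = 0.000567). Of the matricellular and interstitial matrix proteins, 5 of 33 tested members rose and 18 fell, and their median difference was -1.25, or -1.13 with bounded genes at their bound. Bgn, the proteoglycan biglycan, read 5.00, 4.81 and 10.44 in DE and 12.89, 13.05 and 13.72 in ES cells (above background on 1 of 3 DE arrays), so that DE 3 stood well above DE 1 and 2. It fell by 6.47 ± 1.43 (adjusted p = 0.01), and by 8.32 without DE 3. Thbs2, a thrombospondin, was at least 22.8-fold lower (adjusted p = 0.000144), and Timp1, an inhibitor of metalloproteases, read 7.67, 7.73 and 9.63 in DE and 12.75, 12.87 and 13.69 in ES cells and fell by 4.76 ± 0.56 (adjusted p = 0.000851), and by 5.40 without DE 3. Igfbp7, an IGF-binding protein, read 5.86, 5.64 and 8.07 in DE and 13.09, 13.02 and 13.10 in ES cells and fell by 6.55 ± 0.61 (adjusted p = 0.000351), and by 7.32 without DE 3.

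Cytokine genes fell more often than they rose. Of the chemokines, interleukins and other cytokines, 2 of 31 tested members rose and 13 fell, and their median difference was -0.81, or -0.73 with bounded genes at their bound. Ccl7, a chemokine for monocytes, was at 9.36, 9.56 and 9.89 on the ES arrays and at least 21.6-fold lower in DE (adjusted p = 1.24e-05). Cxcl14, another chemokine, was at least 19-fold lower (adjusted p = 2.83e-05), and Csf1, the macrophage growth factor, fell by 3.46 ± 0.46 (adjusted p = 0.00144, above background on 1 of 3 DE arrays). Il18 rose by 2.33 ± 0.36 (adjusted p = 0.00267, above background on 1 of 3 ES arrays). ES 3 was the highest of the ES arrays in 16 of the 18 lowered matrix genes, 12 of the 16 lowered growth factors and 10 of the 13 lowered cytokines, against 873 of all 2267 lowered genes. Fibroblast marker genes moved with these groups: of 9 tested, 5 fell and 1 rose. Their median level was 7.10, 7.43 and 7.87 on ES 1, 2 and 3 and 5.12, 5.23 and 6.10 on DE 1, 2 and 3. The fibroblast marker Postn was detected on 0 arrays of either group. The ES cells were kept on fibroblast feeders, and the part of feeder RNA in these falls was not tested.

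**Figure D4:**
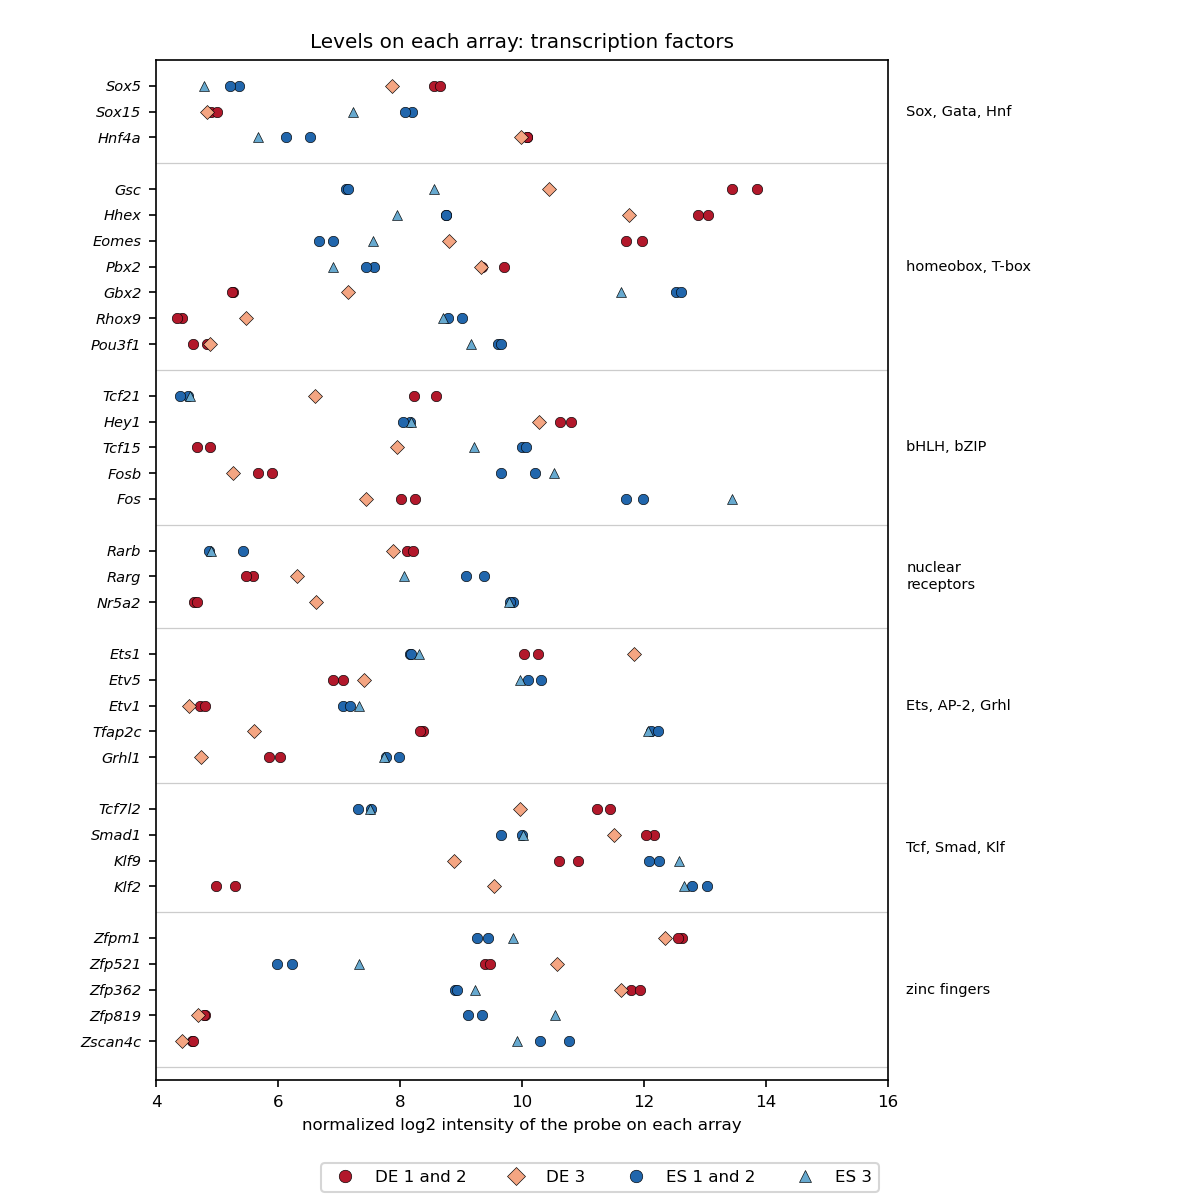
Normalized log2 intensity on each array of 32 transcription factor genes, grouped by family, with 1 symbol per array. The genes were taken from the calls, few of which overlap between groups, so that their separation here follows from the choice. DE 3 lies closer to the ES arrays than DE 1 and 2 for Gsc, Eomes, Klf2 and Tcf15.

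Transcription factors split about evenly, and families differed. Of the Gata, Hnf and Onecut factors, 6 of 8 tested members rose and 0 fell, and their median difference was 2.25, or 1.97 with bounded genes at their bound. Hnf4a, a nuclear receptor of liver and gut, was at 10.08, 10.09 and 9.98 on the DE arrays and 6.13, 6.52 and 5.68 on the ES arrays, and rose by 3.94 ± 0.23 (adjusted p = 6.58e-05). Of the Sox factors, 5 of 12 tested members rose and 2 fell (6 and 4 without DE 3), and their median difference was 1.20. Sox5 rose by 3.24 ± 0.27 (adjusted p = 0.000233, above background on 1 of 3 ES arrays), and Sox15 was at least 6.36-fold lower (adjusted p = 0.000369) with Sox2 at least 35.6-fold lower (adjusted p = 8.16e-06). Of the paired and other homeobox factors, 20 of 48 tested members rose and 14 fell (11 to 13 rose and 11 to 13 fell in fits without DE 1, DE 2, ES 1, ES 2 or ES 3), and their median difference was 0.55. Gsc, a factor of the streak and prechordal plate, read 13.86, 13.45 and 10.45 in DE and 7.12, 7.14 and 8.56 in ES cells and rose by 4.97 ± 0.91 (adjusted p = 0.0049), with 6.04 without DE 3. Hhex, an early factor of liver and thyroid, rose by 4.08 ± 0.40 (adjusted p = 0.000417). Gbx2, a target of LIF signalling in ES cells, read 5.27, 5.25 and 7.14 in DE and 12.52, 12.60 and 11.63 in ES cells and fell by 6.36 ± 0.55 (adjusted p = 0.000275), and by 6.99 without DE 3. Rhox9 fell by 4.09 ± 0.32 (adjusted p = 0.000189, above background on 1 of 3 DE arrays) and Pou3f1, a factor of primed and neural cells, was at least 19.9-fold lower (adjusted p = 1.81e-05). Of the TALE partners of Hox proteins, Pbx2 rose by 2.15 ± 0.23 (adjusted p = 0.000611), Meis3 by 1.85 ± 0.28 (adjusted p = 0.00244, above background on 1 of 3 ES arrays) and Pbx3 by 1.34 ± 0.19 (adjusted p = 0.00172).

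Klf factors, several of which serve in ES cell self-renewal, fell more often than they rose, as did the E2f and Myb factors. Of the Klf and Sp factors, 1 of 17 tested members rose and 6 fell (3 and 8 without DE 3), and their median difference was -0.36. Klf2 read 4.98, 5.29 and 9.54 in DE and 13.03, 12.78 and 12.65 in ES cells (above background on 2 of 3 DE arrays) and fell by 6.22 ± 1.13 (adjusted p = 0.00487), and by 7.69 without DE 3, on which it was higher than on DE 1 and 2. Klf9 fell by 2.16 ± 0.51 (adjusted p = 0.0134), and by 1.53 without DE 3, with the call lost in 1 of 6 fits without an array. Of the E2f and Myb factors, 1 of 13 tested members rose and 6 fell (0 to 3 rose and 3 to 5 fell in fits without DE 3, DE 1, ES 1 or ES 2), and their median difference was -0.28. Mybl2, a cell cycle factor, fell by 1.99 ± 0.17 (adjusted p = 0.000279), and under median scaling 2 of the 13 fell and 0 rose. The immediate early factors Fos and Fosb fell by 4.47 ± 0.47 (adjusted p = 0.000556) and 4.52 ± 0.28 (adjusted p = 7.43e-05), Fos reading 8.02, 8.25 and 7.45 in DE and 11.98, 11.71 and 13.44 in ES cells with ES 3 highest. Ets factors moved both ways: 4 of 17 tested members rose and 5 fell (2 and 4 without ES 2), against 22.7% and 23.1% of all genes tested. Etv5 and Etv1, targets of FGF signalling, fell by 3.01 ± 0.20 (adjusted p = 8.68e-05) and at least 4.07-fold (adjusted p = 8.61e-05), and Ets1, known from endothelial and blood cells, rose by 2.50 ± 0.45 (adjusted p = 0.00483). Tfap2c read 8.38, 8.33 and 5.61 in DE and 12.11, 12.23 and 12.06 in ES cells and fell by 4.70 ± 0.71 (adjusted p = 0.00235), and by 3.78 without DE 3.

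Nuclear receptors moved both ways: 4 of 19 tested members rose and 6 fell, against 22.7% and 23.1% of all genes tested. Of the retinoic acid receptors, Rarb read 8.11, 8.22 and 7.88 in DE and 4.87, 5.43 and 4.90 in ES cells (above background on 1 of 3 ES arrays) and rose by 3.01 ± 0.21 (adjusted p = 0.000119), while Rarg read 5.59, 5.48 and 6.31 in DE and 9.38, 9.09 and 8.07 in ES cells and fell by 3.05 ± 0.39 (adjusted p = 0.00117). Nr5a2 read 4.63, 4.68 and 6.63 in DE and 9.85, 9.81 and 9.79 in ES cells (above background on 2 of 3 DE arrays) and fell by 4.50 ± 0.52 (adjusted p = 0.000817), and by 5.16 without DE 3, with another probe of the gene called otherwise. Tcf7l2, which carries Wnt signals to DNA, read 11.23, 11.44 and 9.96 in DE and 7.31, 7.52 and 7.50 in ES cells and rose by 3.43 ± 0.38 (adjusted p = 0.000698), and Smad1, which carries BMP signals, rose by 2.02 ± 0.22 (adjusted p = 0.000698). Of bHLH factors, Tcf21, a factor of visceral mesoderm and epicardium, was at least 6.37-fold higher (adjusted p = 0.00206), with a difference of 3.92 without DE 3, and Hey1, a Notch target, rose by 2.44 ± 0.18 (adjusted p = 0.000164). Tcf15, first known from somites, read 4.67, 4.89 and 7.95 in DE and 10.00, 10.07 and 9.21 in ES cells (above background on 1 of 3 DE arrays) and fell by 3.92 ± 0.85 (adjusted p = 0.00922), and by 4.98 without DE 3. Among zinc finger genes Zfpm1, a cofactor of Gata proteins, rose by 2.99 ± 0.20 (adjusted p = 0.00011), Zfp521 by 3.31 ± 0.45 (adjusted p = 0.00151) and Zfp362 by 2.76 ± 0.17 (adjusted p = 8.16e-05). Zscan4c, a gene of rare ES cells with features of the early embryo, was at 10.29, 10.77 and 9.91 on the ES arrays and at least 35.6-fold lower (adjusted p = 1.81e-05); its near-identical relatives may share its probe, which was not tested. Of 16 Hox genes tested, 0 passed in either direction. On DE 3, 13 of the 16 Hox genes stood at least 2-fold above DE 1 and 2, and without DE 3, 8 fell and 0 rose.

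**Figure D5:**
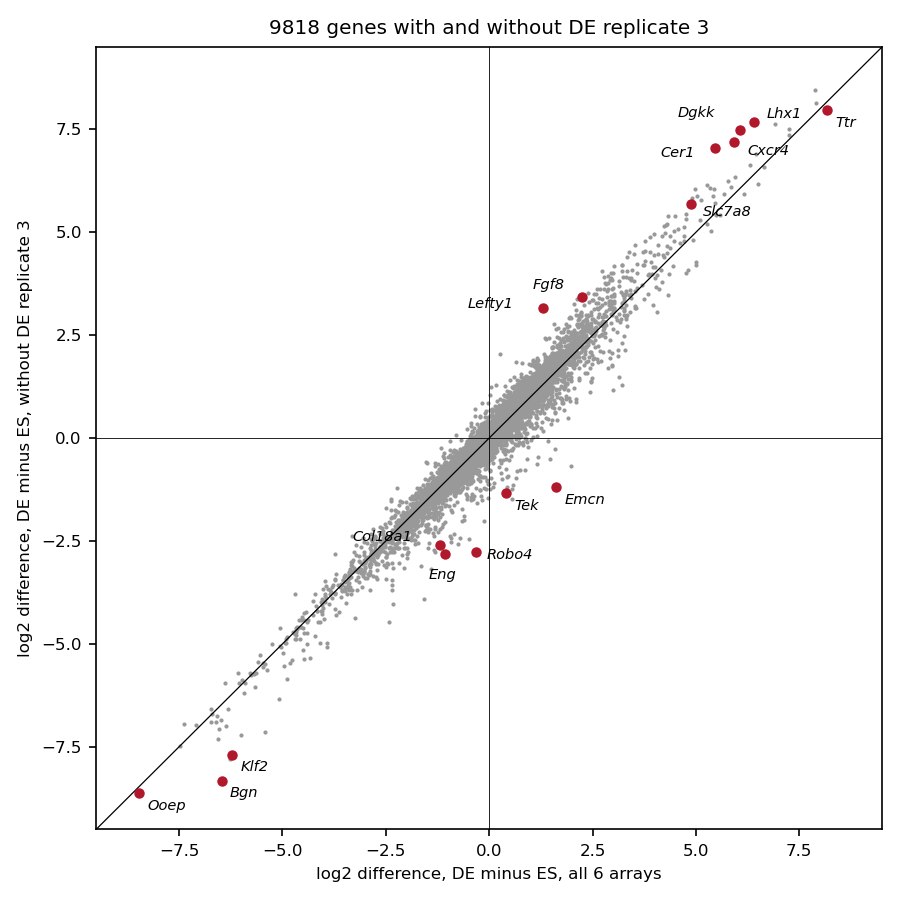
Log2 difference, DE minus ES, of each of 9818 genes with all 6 arrays (horizontal axis) and without DE replicate 3 (vertical axis), with the line of equality. Tek and Emcn change sign, Lefty1 and Cer1 lie above the line, and Ttr and Ooep lie near it.

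The number of genes that passed depended on DE 3. Without it 2883 genes rose and 2804 fell, and 1249 genes passed that did not pass with all 6 arrays. Of the 5322 genes that did not pass, 943 (17.7%) stood at least 2-fold apart on DE 3. The endothelial genes Emcn and Tek read 5.03, 4.73 and 13.34 and 6.44, 6.20 and 11.56 on DE 1, 2 and 3. Neither passed with all arrays, at 1.62 ± 2.17 and 0.41 ± 1.34, and both fell without DE 3, by 1.20 (adjusted p = 0.0152) and 1.34 (adjusted p = 0.000612). The Slit receptor Robo4, known from endothelium, read 4.44, 4.70 and 11.95 in DE and 7.57, 7.59 and 6.90 in ES cells (above background on 1 of 3 DE arrays) and the basement membrane collagen Col18a1 9.80, 9.84 and 14.09 in DE and 12.28, 12.23 and 12.77 in ES cells. Neither passed with all arrays, and without DE 3 they fell by 2.78 and 2.61. Of the 9 tested genes on the blood and endothelium list, 6 were at least 2-fold higher on DE 3 than on DE 1 and 2, and 0 at least 2-fold lower. Kdr of that list had a difference of -0.44 with all arrays and -0.37 without DE 3. The part of blood and endothelial cells in these values was not tested. Of the genes that rose or fell with all arrays, 1423 rose and 1549 fell in each of the 6 fits without 1 array.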

How the data were processed

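The 6 arrays were taken from the authors' deposited table of non-normalized bead intensities, which per the file headers gives a signal and a detection p-value for each probe and sample. No source used here names the scanner software or any earlier correction. The authors' processed matrix was not used here: its column for ES 3 ranks probes as the intensity column of ES 2 does, and its column for ES 2 as none of the intensity columns. Which source assigns the ES arrays to samples rightly, and thus which ES array was on the second slide, is not settled by the files. Intensities were background-corrected with detection p-values, given an offset of 16, quantile normalized and log2 transformed (neqc, limma 3.58.1, R 4.3.3). Of 25697 probes, 23978 had 1 gene symbol, 0 several and 1719 none, and 23962 matched RefSeq by Entrez identifier. Probes with detection p under 0.05 on at least 3 of 6 arrays were kept (14467, of which 13614 were named), and the brightest probe represented each of 9818 genes. Limma tested DE against ES with 4 residual degrees of freedom and Benjamini-Hochberg adjustment over all 9818 genes. A simulation drew independent normal noise for each gene and changed 200 of 9818 genes. In it the test recovered 32% of 2-fold and 91% of 4-fold changes with 7 false calls. On the real arrays 4496 genes passed, and DE 3 stood apart in many genes at once. The simulation copied neither, so its figures do not give the recovery in this comparison. Named genes were the 12 largest rises and 12 largest falls of at least 2-fold whose arrays do not overlap, up to 3 calls of at least 2-fold each way in each family, overlapping or not, the family member not called with the highest mean, the cell type markers, and the 10 highest genes each way detected in 1 group only. The Wnt regulators named beyond these are the other called members, chosen after their values were seen. Alternatives changed the background correction, scaling, filter, probe choice, moderation, tested fold, arrays in the fit and replicate block. The members, families and lists were chosen with earlier results of these data known, and symbols that matched a family by letters only were removed afterwards, by function. The number of arrays limits the precision. Figures used matplotlib 3.10.9.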

Additional observations from a re-analysis of the deposited data

How the results depend on the processing

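With 1 of the 6 arrays left out in turn, genes higher in DE numbered 1534 to 2883 and lower 1652 to 2804, and those at least 2-fold numbered 1211 to 1658 and 1297 to 1593. All 4 counts were highest without DE replicate 3 and lowest without ES replicate 2. Without ES replicate 3, by its label the only array on the second slide, 1938 rose and 2144 fell. Without DE replicate 3 the differences of Emcn, Ets2 and Tek reversed to -1.20 (adjusted p = 0.0152), -0.84 (adjusted p = 0.00562) and -1.34 (adjusted p = 0.000612), against up to 3.11, 0.90 and 1.34 without other arrays, and 36 of 487 named genes newly passed. With no background correction, 917 genes were at least 2-fold higher and 913 at least 2-fold lower, since fold changes on uncorrected intensities are smaller. Tested against a fold of 1.5, 907 rose and 999 fell, all at least 2-fold, and 62 of 487 named genes no longer passed. Median scaling in place of quantiles moved the median of all genes to 0.10 and gave 2215 higher and 1698 lower. Samples of the same replicate number did not deviate together, with correlations of -0.00678, -0.144 and -0.0376 for numbers 1, 2 and 3. With the replicate number as a block 1881 rose and 1920 fell, and 9 of 487 named genes no longer passed. With no filter 24 named genes no longer passed, and under cyclic loess, robust moderation and the mean of probes none did, nor under the stricter filter among the 475 it kept. At a detection p of 0.01, 312 genes were detected in DE only and 397 in ES cells only. Dim probes limit the comparison: 5231 genes were detected on none of the 6 arrays, and for them no difference was detectable.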
